A study of Mus musculus with 18 samples.

Results

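From mouse hearts, 6 RNA-seq libraries labelled HXP were compared with 6 libraries labelled control. These are 12 of the 18 libraries of the series, chosen by their titles, and the other 6 are labelled MI. By its title the study looked at HXP given in a mouse model of acute myocardial infarction. The sources used here do not give what HXP abbreviates, its dose, the times of treatment and collection, or the strain, sex and age of the mice. They do not say if all HXP hearts had been infarcted. Total RNA of heart tissue was depleted of ribosomal RNA, so that transcripts with no poly(A) tail could be sequenced too. The labels do not say that each library came from a separate mouse, so a p-value here reflects only the variation among libraries, part of which may be technical.

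After an infarct, lost muscle is replaced by scar: fibroblasts become activated and lay down collagens and matrix glycoproteins, immune cells clear dead tissue, and surviving muscle cells switch fetal genes such as natriuretic peptides back on. Heart muscle depends on mitochondria, whose respiratory complexes hold subunits encoded in the nucleus and subunits encoded in mitochondrial DNA, the second kind made on dedicated mitochondrial ribosomes. Replication-dependent histone mRNAs end in a stem-loop bound by SLBP in place of a poly(A) tail and are made mostly in dividing cells. In whole-tissue RNA, fewer cells of a type and less RNA per cell cannot be told apart.

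Values were in FPKM, fragments per kilobase of exon scaled to library depth, for 34150 genes, of which 13710 averaged at least 0.5 FPKM and were tested. The recovered depth was about 75500000 to 77600000 reads in HXP libraries and 76100000 to 80500000 reads in control libraries. The 7 heart muscle markers (Myh6, Actc1, Tnnt2, Tnni3, Myl2, Ryr2 and Pln) were each at 24.4 FPKM or more in every HXP library and at 35.6 FPKM or more in every control library. The HXP libraries were the more uneven group. Mitochondrial genes, counted with 7 nuclear pseudogenes that averaged 1000 FPKM or more, took 20.5% to 45.5% of gene-assigned reads in HXP libraries. In control libraries this share was 36.4% to 42.6%. Genes at 1 FPKM or more numbered 9888 to 12820 in HXP libraries and 10516 to 10934 in control libraries. Neither difference in means passed an exact two-sided permutation test over 924 regroupings (33.1% ± 10.1 in HXP libraries, 39.2% ± 2.23 in control libraries, n = 6 per group, SD, p = 0.173, and 11504 ± 1104 and 10762 ± 173 genes, p = 0.147). Because these shares move every other FPKM value, results are also given after median-ratio scaling, which divides each library by the median of its ratios to the geometric mean. The scaling moved the median difference of all genes to -0.01, against 0.16 as deposited, on the log2(FPKM + 1) scale.

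The promoters of 4 genes called between HXP and control hearts are shown first. A histone gene and a pair of mitochondrial ribosomal protein genes were lower in HXP hearts. The secreted protein gene had the largest difference among the higher genes called. Each sequence is the 250 bases before the start of the gene in RefSeq (GRCm38.p6), 5′ to 3′ on the strand of the gene. Capitals mark matches on either strand. The letters searched were TATAAA for the TATA box. For the GC box they were GGGCGG. For the CCAAT box they were those of its name, and the motifs do not overlap one another.
Hist1h4h, + strand, chr13:23530794-23531043: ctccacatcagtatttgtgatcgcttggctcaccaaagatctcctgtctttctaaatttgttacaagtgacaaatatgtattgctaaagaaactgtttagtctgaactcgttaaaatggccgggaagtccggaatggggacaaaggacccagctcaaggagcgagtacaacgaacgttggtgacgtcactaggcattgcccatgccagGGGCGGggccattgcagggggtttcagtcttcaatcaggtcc
Mrpl34, + strand, chr8:71464676-71464925: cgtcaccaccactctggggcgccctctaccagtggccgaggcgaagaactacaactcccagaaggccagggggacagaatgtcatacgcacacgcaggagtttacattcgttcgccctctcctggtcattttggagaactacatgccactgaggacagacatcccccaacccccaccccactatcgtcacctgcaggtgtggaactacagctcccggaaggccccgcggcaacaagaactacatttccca
Mrps12, - strand, chr7:28741822-28742071: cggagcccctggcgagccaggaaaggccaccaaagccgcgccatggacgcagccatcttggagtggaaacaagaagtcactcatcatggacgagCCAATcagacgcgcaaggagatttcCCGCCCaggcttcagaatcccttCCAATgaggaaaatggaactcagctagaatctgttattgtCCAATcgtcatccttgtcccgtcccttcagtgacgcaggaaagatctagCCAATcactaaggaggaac
Angptl7, - strand, chr4:148500463-148500712: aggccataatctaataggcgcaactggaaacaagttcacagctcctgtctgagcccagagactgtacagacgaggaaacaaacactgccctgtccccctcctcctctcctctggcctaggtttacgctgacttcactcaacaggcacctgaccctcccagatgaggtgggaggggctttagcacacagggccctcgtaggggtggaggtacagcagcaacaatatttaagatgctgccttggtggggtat
The Hist1h4h window held 1 GC box, the Mrps12 window 4 CCAAT boxes and 1 GC box on the other strand, and the Mrpl34 and Angptl7 windows none of these letters. Windows were matched for 23 of the 30 genes lower in HXP hearts, and of their 30 windows 56.7% held a GC box, 20% a CCAAT box and 6.67% a TATA box. Among the 12542 windows of all genes tested the shares were 56.8%, 34.9% and 6.86%.

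With FPKM as deposited, 30 genes were lower in HXP than in control hearts (0.219% of genes tested) and 13 were higher (0.0948%), by limma at a Benjamini-Hochberg adjusted p below 0.05. The lower genes included 4 genes of the mitochondrial ribosome, a replication-dependent histone, a complex I subunit and 6 further genes of mitochondrial proteins described below. Among the 13 higher genes called, Angptl7 stood far from the rest, with a difference of 4.05 where the next, Cpeb1, had 0.89. Genes that were not called also had large differences, such as Igkc at 4.04 and Postn at 3.07 (limma adjusted p = 0.0881 and 0.0528). Every HXP library was below every control library for 22 of the 30 lower genes, against 0.569% of all genes tested, and above for 10 of the 13 higher ones, against 1.13%. The genes were called on the same libraries, so this separation follows in large part from the call and is not added support. After scaling, 814 genes were lower (5.94%) and 467 higher (3.41%), and these included all 30 of the lower genes and 11 of the 13 higher ones. Scaled values put every HXP library below every control for 3.09% of all genes tested, and above for 1.13%. No count here holds in every setting: without HXP 6 as deposited, 381 genes were lower (2.78%) and 3855 higher (28.1%), and without HXP 5, control 3, control 5 or control 6 none were called by limma, where 582 to 642 genes were lower and 3164 to 4114 higher at an unadjusted p below 0.05.

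**Figure D1:**
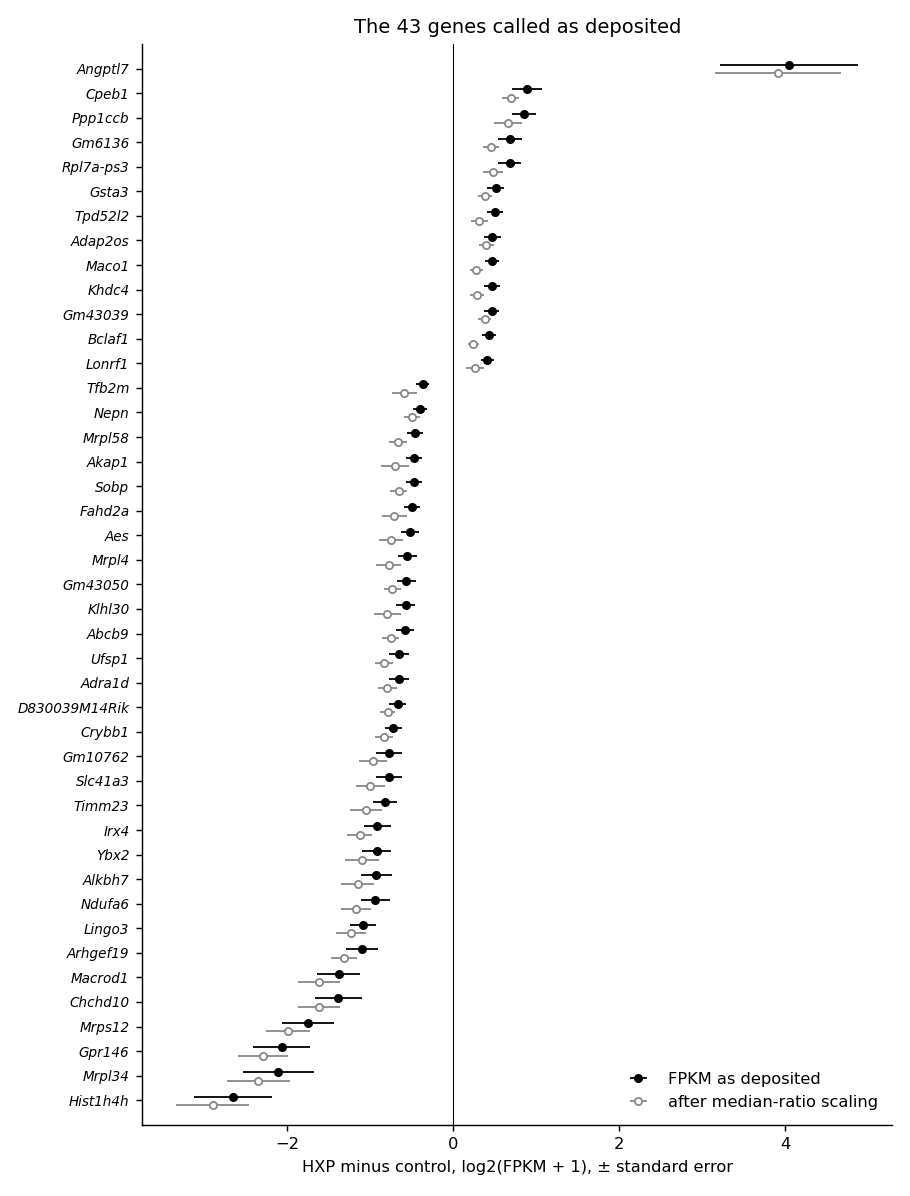
Fitted difference, HXP minus control, on the log2(FPKM + 1) scale (x axis, bars are standard errors) for the 43 genes called with FPKM as deposited (rows), as deposited (filled) and after median-ratio scaling (open). Angptl7 lies at 4.05 and Hist1h4h at -2.65, and every open point lies on the same side of 0 as its filled one.

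Hist1h4h, 1 of the many genes for histone H4, fell furthest of the called genes. It lies on chromosome 13 (23531050-23531519 in GRCm38, + strand) as a protein-coding gene of 470 bases. It had 0.0277, 1.13 and 4.79 FPKM (lowest, median, highest) in HXP libraries, against 5.39, 12.9 and 18.1 FPKM in control libraries, so the groups did not overlap. The lowest value, in HXP 6, rested on 1 read and the next, in HXP 5, on 9. The difference was -2.65 ± 0.47 as deposited (log2 scale, standard error, limma adjusted p = 0.0363) and -2.90 after scaling (adjusted p = 0.00313). H4 genes have near-identical coding sequences, so how reads were shared among them is uncertain.

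Of 43 listed replication-dependent histone genes in the files 12 passed the filter on low values, of which 11 had a negative and 1 a positive difference. Hist1h4h alone was called as deposited, at a list median of -0.33. After scaling 6 of the 12 had fallen and none had risen, at a median of -0.56 where all genes had -0.01. Hist1h2bg, an H2B gene, had 0.0843, 1.63 and 2.36 FPKM in HXP libraries, against 2.85, 5.14 and 9.41 FPKM in control libraries, with no overlap (-1.53 ± 0.34, limma adjusted p = 0.0528, and 0.00491 after scaling). Hist1h2bc, another H2B gene, had 3.82, 14.3 and 23.1 FPKM in HXP libraries, against 19.2, 29.1 and 43.4 FPKM in control libraries, where only the ends of the ranges overlapped (-1.32 ± 0.34, limma adjusted p = 0.0831, and 0.00536 after scaling). Of 15 genes for histone mRNA processing and histone chaperones none was called as deposited. Slbp, the stem-loop binding protein, was at 0.947, 1.14 and 1.53 FPKM in HXP libraries and 1.10, 1.35 and 1.41 FPKM in control libraries. Its groups overlapped widely as deposited, and it was not called. After scaling it was called lower (-0.22, limma adjusted p = 0.0203). Every HXP library was then below every control, as for 3.09% of all genes tested. None of the 16 cell cycle genes tested was called as deposited, and after scaling 1 had risen, against 3.41% of all genes tested.

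Several genes for proteins of the mitochondrial ribosome fell. Of 49 large-subunit proteins 3 had fallen as deposited and 18 after scaling, and of 31 small-subunit proteins 1 and 9, with none higher in either. Mrpl34, a large-subunit protein gene on chromosome 8, had 4.25, 12.5 and 31.5 FPKM in HXP libraries, against 27.6, 54.5 and 73.3 FPKM in control libraries (-2.11 ± 0.43, limma adjusted p = 0.0453). Only HXP 1 and control 2 overlapped, and after scaling the groups separated. Mrps12, which forms part of the decoding centre of the small subunit, had 1.82, 6.90 and 10.5 FPKM in HXP libraries, against 15.1, 22.5 and 23.9 FPKM in control libraries, with no overlap (-1.75 ± 0.32, limma adjusted p = 0.0374). Smaller falls were measured for Mrpl4 (-0.55 ± 0.11) and Mrpl58 (-0.46 ± 0.09), a peptidyl-tRNA hydrolase built into the large subunit, both at a limma adjusted p of 0.0453. Mrps28 had 10.1, 17.0 and 40.3 FPKM in HXP libraries, against 36.1, 40.3 and 42.2 FPKM in control libraries. The highest HXP library thus lay within the control range. Mrps28 was not called as deposited (-1.16 ± 0.25, limma adjusted p = 0.0528) but fell after scaling, where the groups separated. The list medians were modest next to these genes, at -0.42 for the large and -0.32 for the small subunit after scaling, and the mean level of the large-subunit list after scaling was below every control in all 6 HXP libraries. As deposited, HXP 1 was above every control for that mean, at 4.15 on the log2(FPKM + 1) scale where the highest control had 4.12.

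**Figure D2:**
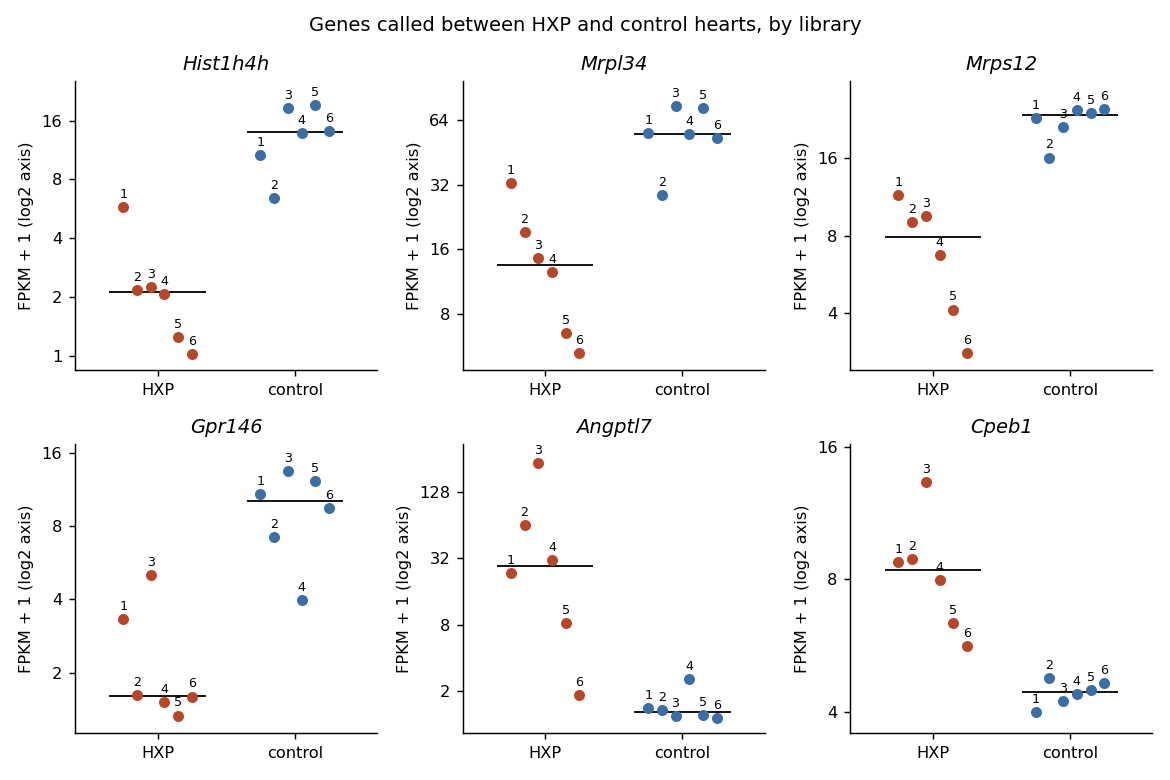
FPKM + 1 on a log2 axis for 6 called genes in each HXP (left) and control (right) library, as deposited. Numbers are the replicate numbers of the titles and lines are medians. HXP 5 and HXP 6 are the lowest HXP points for Hist1h4h, Mrpl34 and Mrps12, and HXP 6 is the one HXP point within the control range of Angptl7.

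Some nuclear genes for respiratory chain subunits also fell, most of them after scaling. Of 36 complex I genes 1 had fallen as deposited and 12 after scaling (median -0.32 and -0.55), and of 36 genes for complexes III to V none as deposited and 6 after scaling (median -0.24 and -0.47). The mean level of each list after scaling was below every control in all 6 HXP libraries. As deposited, HXP 1 was above every control for each list, for complex I at 6.99 where the highest control had 6.88. Ndufa6, an accessory subunit of complex I, had 24.1, 28.3 and 49.1 FPKM in HXP libraries, against 51.8, 61.9 and 66.6 FPKM in control libraries, with no overlap (-0.94 ± 0.17, limma adjusted p = 0.0374). Uqcrq, a small subunit of complex III, ran from 6.53 to 121 FPKM in HXP libraries with a median of 51.4, against 156 to 199 FPKM with a median of 188 in control libraries. Its groups did not overlap, and it was not called as deposited (-2.38 ± 0.51, limma adjusted p = 0.0528, and 0.00536 after scaling). Cox5b, a subunit of complex IV, was likewise below every control (-1.20 ± 0.29, limma adjusted p = 0.0645, and 0.0102 after scaling). The 13 proteins encoded in mitochondrial DNA gave no call in either scaling. Their median was -0.28 as deposited and -0.51 after scaling, with all 13 differences negative in both. The HXP libraries were split for their mean level as deposited, on the log2(FPKM + 1) scale. HXP 1, 2 and 3 (13.36, 13.64 and 13.22) were below every control, where controls ran from 13.993 to 14.175. HXP 4 lay within the control range, and HXP 5 (14.177) and HXP 6 (14.289) were above it. The negative signs thus do not show a fall in every HXP library. Of the 13 genes, mt-Co1, a core subunit of complex IV, had a limma adjusted p of 0.188 as deposited. Fatty acid oxidation, the main fuel pathway of the heart, had none of 25 genes called as deposited and 1 lower after scaling. Among all genes tested 5.94% were lower after scaling. The list median was -0.35 as deposited and -0.58 after scaling, with 24 of 25 differences negative.

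Further genes of mitochondrial proteins among the 30 lower ones were read from the list after their values were seen. Chchd10, a protein of the intermembrane space, had 17.2, 43.9 and 69.6 FPKM in HXP libraries, against 87.4, 92.7 and 134 FPKM in control libraries (-1.39 ± 0.28, limma adjusted p = 0.0453). Timm23, the channel of protein import through the inner membrane, had 25.6, 34.6 and 49.97 FPKM in HXP libraries, against 55.0, 60.9 and 65.2 FPKM in control libraries (-0.82 ± 0.15, limma adjusted p = 0.0363). The groups did not overlap for either gene, nor for Macrod1, a mitochondrial ADP-ribosyl hydrolase (-1.38 ± 0.26), Akap1, which anchors protein kinase A at the outer membrane (-0.47 ± 0.09), and Tfb2m, a transcription factor of mitochondrial DNA (-0.37 ± 0.08). Alkbh7, a mitochondrial dioxygenase, differed by -0.93 ± 0.19 with overlapping groups. The library kit does not mark strand, and Chchd10 overlaps Mmp11 while Macrod1 overlaps Flrt1, so their reads cannot be fully told apart.

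Of the lower genes not known for mitochondrial proteins, 5 are described here. Irx4, a transcription factor of the ventricle, had 3.78, 5.71 and 9.17 FPKM in HXP libraries, against 9.77, 11.4 and 12.9 FPKM in control libraries, with no overlap (-0.91 ± 0.16, limma adjusted p = 0.0363). Gpr146, a G protein-coupled receptor, had 0.336, 0.607 and 4.04 FPKM in HXP libraries, against 2.96, 9.16 and 12.5 FPKM in control libraries, where control 4 lay within the HXP range (-2.07 ± 0.34, limma adjusted p = 0.0293). Gpr146 overlaps 3110082I17Rik, so part of its reads are uncertain. Arhgef19, a guanine nucleotide exchange factor, fell by 1.10 ± 0.19, Lingo3, a leucine-rich repeat membrane protein, by 1.09 ± 0.16 and Adra1d, the alpha-1D adrenergic receptor, by 0.66 ± 0.12 on the log2 scale (limma adjusted p = 0.0363, 0.0174 and 0.0374). Adra1d was no longer called once a trend with GC content was removed (adjusted p = 0.124). Of 14 renin-angiotensin and adrenergic receptor genes none was called as deposited, Adra1d not being on that list. After scaling Adra1b and Adrb1, the alpha-1B and beta-1 receptors, had fallen (-0.96 and -0.73). The Adrb1 groups overlapped in both scalings. With the GC trend removed Adra1b was called (limma adjusted p = 0.0369) and Adrb1 was not (0.0971).

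The 30 lower genes shared features that the test did not use. Their median exon length was 1949 bases and their median GC content 56.5%, where all genes tested had 3990 bases and 49.8%. Genes in the top quintile by GC content made up 20 of the 30. In that quintile the median deviation from the control mean after scaling was -0.29 in HXP 5 and -0.41 in HXP 6, and between -0.07 and 0.07 in the other 10 HXP and control libraries. With the GC trend removed from each library 27 of the 30 lower genes were still called, among 560 lower genes in all (4.08%), and Hist1h4h differed by -2.70. What part GC content has in these falls was not tested further.

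**Figure D3:**
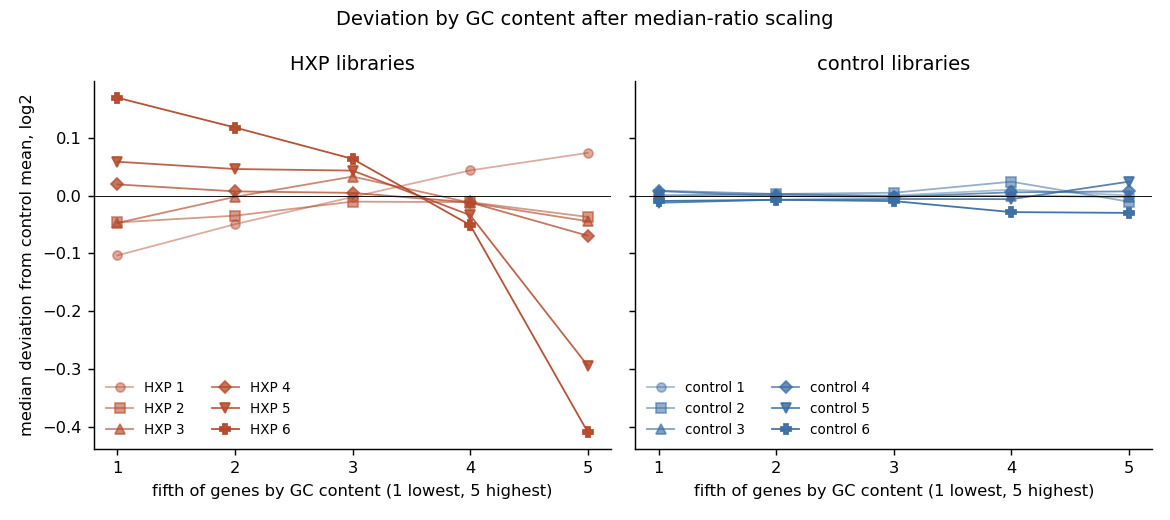
Median deviation from the control mean after median-ratio scaling, log2 (y axis), over the genes of each quintile by GC content (x axis), for each HXP library (left) and each control library (right). HXP 5 and HXP 6 drop to -0.29 and -0.41 in the quintile with the highest GC content, and no other HXP or control library leaves the range of -0.07 to 0.07 there.

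Angptl7, which encodes a secreted angiopoietin-like protein found in connective tissue, was the called gene that rose most. It lies on chromosome 4 within the span of Mtor, which could add reads to it. It had 0.845, 26.1 and 232 FPKM in HXP libraries, against 0.145, 0.283 and 1.57 FPKM in control libraries (4.05 ± 0.84, limma adjusted p = 0.0456, and 0.00763 after scaling). In 5 of the 6 HXP libraries it was above every control, and HXP 6 lay below control 4. No other of the 9 angiopoietin and angiopoietin-like genes tested was called as deposited, and Angpt2, a ligand of the vascular receptor Tie2, joined it after scaling (0.75, limma adjusted p = 0.0401). Angptl1 had 0.646, 3.18 and 9.70 FPKM in HXP libraries and 0.469, 0.769 and 1.00 FPKM in control libraries and passed neither test.

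The other 12 higher genes had differences of 0.89 or less. Cpeb1, which binds mRNAs and controls their translation, had 4.64, 7.39 and 12.3 FPKM in HXP libraries, against 2.99, 3.44 and 3.76 FPKM in control libraries, with no overlap (0.89 ± 0.18, limma adjusted p = 0.0453). Gsta3, a glutathione S-transferase, had 1.21, 1.502 and 2.23 FPKM in HXP libraries, against 0.687, 0.829 and 1.04 FPKM in control libraries, again with no overlap (0.51 ± 0.10, limma adjusted p = 0.0453). Of 21 glutathione and NRF2 target genes Gsta3 alone was called as deposited. After scaling 2 had risen, against 3.41% of all genes tested. Tpd52l2, Maco1 and Khdc4 were higher by 0.47 to 0.51 as deposited, and of these Tpd52l2 missed the call after scaling (adjusted p = 0.0507). The processed pseudogenes Ppp1ccb (0.85 ± 0.14) and Rpl7a-ps3 (0.68 ± 0.14) share sequence with Ppp1cc and Rpl7a, and their reads may be misassigned. Ppp1cc itself was at a median of 10.96 FPKM in HXP and 11.8 FPKM in control libraries, and Rpl7a at 29.2 FPKM in HXP and 18.6 FPKM in control libraries, neither called.

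Matrix genes were far higher in 5 of the 6 HXP libraries, and their calls turned on the scaling and on HXP 6. Of 25 matrix glycoproteins and proteoglycans none was called as deposited, at a median difference of 2.26 and limma adjusted p from 0.0528 to 0.134. After scaling 22 had risen, at a median of 2.05, and without HXP 6 all 25 had risen as deposited, where 28.1% of all genes tested were called higher. Postn, the periostin of activated fibroblasts, had 2.12, 41.0 and 177 FPKM in HXP libraries, against 2.31, 3.18 and 4.14 FPKM in control libraries (3.07 ± 0.69, limma adjusted p = 0.0528, and 0.0107 after scaling). HXP 6 was below all controls and the other 5 HXP libraries were above them. Thbs4, a thrombospondin, and Mfap5, a component of microfibrils, were above every control in the same 5 HXP libraries, with medians of 15.8 and 25.5 FPKM in HXP libraries and 1.14 and 3.58 FPKM in control libraries. The mean level of the list after scaling ran from 2.32 (HXP 6) to 6.52 (HXP 3) in HXP libraries and from 2.57 to 2.98 in control libraries.

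Collagens, matrix enzymes and fibroblast markers also gave higher genes after scaling. Of 17 collagen genes none was called as deposited, 6 had risen after scaling and 14 without HXP 6. Col3a1, the collagen of early scar, had 6.97, 233 and 803 FPKM in HXP libraries, against 17.7, 23.3 and 30.8 FPKM in control libraries (2.63 ± 0.78, limma adjusted p = 0.0881, and 0.0381 after scaling). Col1a1, the main collagen of mature scar, had 2.29, 118 and 345 FPKM in HXP libraries and 9.25, 13.3 and 16.7 FPKM in control libraries and was called in neither (2.22 ± 0.82, limma adjusted p = 0.102, and 0.0842 after scaling). Of 21 matrix proteases, inhibitors and crosslinkers none was called as deposited and 7 had risen after scaling, among them Timp1 (2.31), an inhibitor of metalloproteinases, and Serpinh1 (1.07), a collagen chaperone. Timp3, another such inhibitor, was above every control in all 6 HXP libraries (32.2, 49.8 and 128 FPKM in HXP libraries, against 20.8, 27.1 and 31.7 FPKM in control libraries) and was called after scaling. Of 15 fibroblast markers 8 had risen after scaling, and of 20 TGF-beta signalling genes 6. Spp1, the osteopontin of macrophages and fibroblasts, had 0.316, 6.07 and 38.5 FPKM in HXP libraries and 0.254, 0.440 and 0.604 FPKM in control libraries, and was not called as deposited but rose after scaling (2.12, limma adjusted p = 0.0442).

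**Figure D4:**
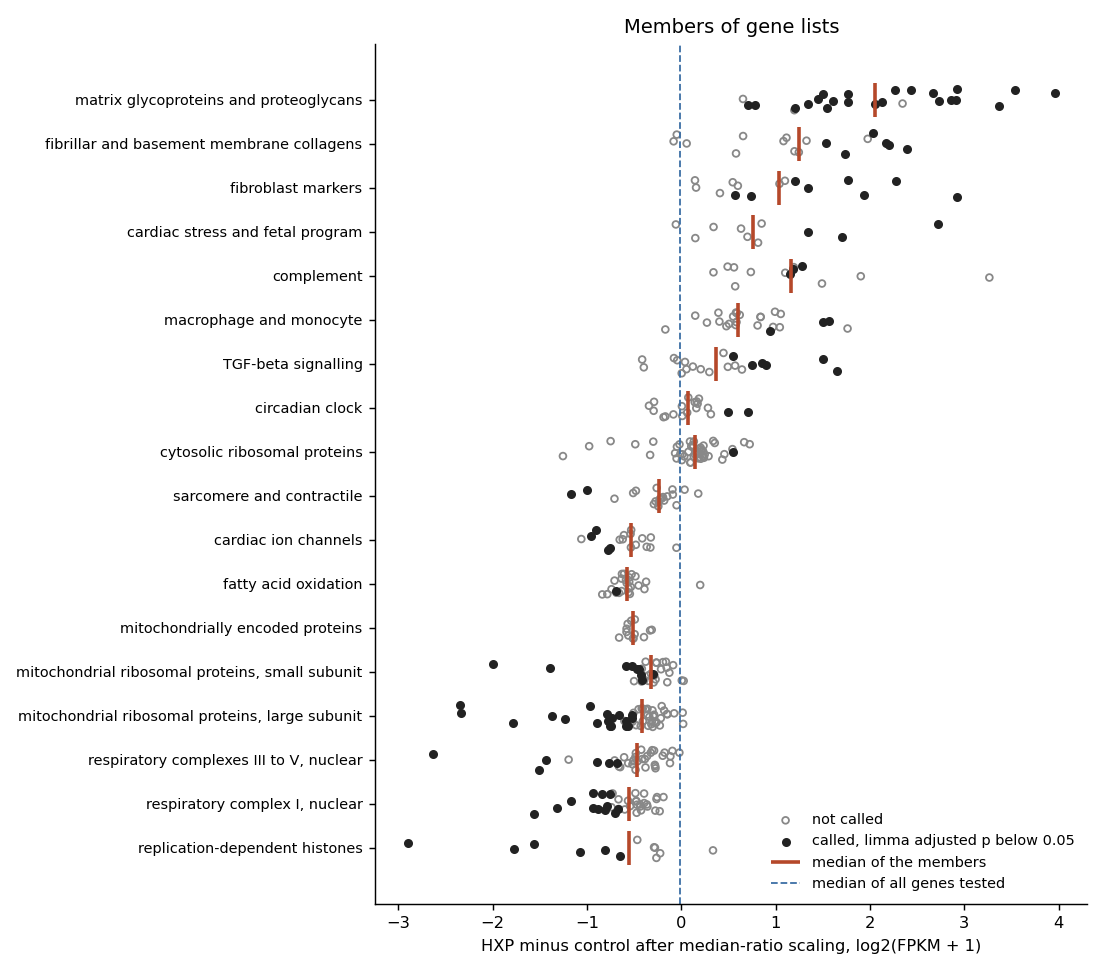
Difference between HXP and control after median-ratio scaling, log2(FPKM + 1) (x axis), for the tested members of 18 gene lists (rows). Filled points are called genes, thick lines are list medians and the dashed line is the median of all genes at -0.01. Matrix glycoproteins have a median of 2.05 and replication-dependent histones of -0.56.

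The fetal and stress genes of heart muscle showed wide ranges in HXP hearts. Of 10 genes tested none was called as deposited and 3 had risen after scaling. Nppa, the atrial natriuretic peptide, had 88.3, 1724 and 7107 FPKM in HXP libraries, against 89.8, 151 and 348 FPKM in control libraries (2.95 ± 0.80, limma adjusted p = 0.0874, and 0.0276 after scaling). Its lowest value was again HXP 6 and the other 5 HXP libraries lay above every control. Myh7, the slow myosin of the fetal ventricle, rose after scaling (1.34, limma adjusted p = 0.0273), as did the matricellular growth factor gene Ccn2 (1.70, 0.0273). Nppb, the B-type natriuretic peptide (limma adjusted p = 0.104 as deposited), Acta1, skeletal actin (0.176), and Myh6, the fast adult myosin (0.292), were called in neither scaling. Of 20 sarcomere genes none was called as deposited and 2 were lower after scaling, against 5.94% of all genes tested. These were Tcap, the titin cap (-1.17), and Myl3, a ventricular light chain (-0.99). Of 17 ion channel genes 4 were lower after scaling, among them Kcnj11 (-0.78), a subunit of the ATP-sensitive potassium channel, and the potassium channels Kcnk3 (-0.75) and Kcnh2 (-0.96). With the GC trend removed from each library none of the 17 was called.

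Few immune genes passed the test. After scaling 3 of 24 macrophage and monocyte genes, 1 of 10 MHC class II genes and 3 of 14 complement genes had risen, and none was called as deposited. Of 25 interferon response and MHC class I genes 1 had risen after scaling, where 3.41% of all genes tested had risen. The median of these 25 genes was 0.02, with 13 positive and 12 negative differences. The mean level of the list after scaling was above every control in 5 HXP libraries for macrophage and for complement genes, in 4 for MHC class II and in 2 for interferon response genes. With the GC trend removed none of the 24 macrophage and monocyte genes was called. Il33, an alarmin cytokine, had 1.51, 6.71 and 20.6 FPKM in HXP libraries, against 0.537, 1.08 and 1.69 FPKM in control libraries (1.75 after scaling, limma adjusted p = 0.0193). Igkc, the constant region of antibody kappa chains, had 2.67, 124 and 686 FPKM in HXP libraries, against 1.52, 4.61 and 13.2 FPKM in control libraries (3.82 after scaling, limma adjusted p = 0.0372). The 12 lymphoid and plasma cell markers summed to 6.88 to 1177 FPKM in HXP libraries and 6.28 to 24.6 FPKM in control libraries, and 2 of 6 tested had risen after scaling. The 9 adipocyte markers, none of 7 tested called, summed to 520 and 457 FPKM in the highest HXP libraries, HXP 2 and HXP 3, with a lowest of 17.5 FPKM in HXP libraries and 14.4 to 18.6 FPKM in control libraries. The 8 atrial markers summed to 5.06 to 113 FPKM in HXP libraries and 7.88 to 9.24 FPKM in control libraries, and 1 of 7 tested had risen after scaling. The 9 lung epithelium markers stayed at or under 2.78 FPKM in sum, with Sftpd and Cldn18 at 0 in all 12 libraries. The part of tissue composition in the matrix, stress and immune results was not tested.

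**Figure D5:**
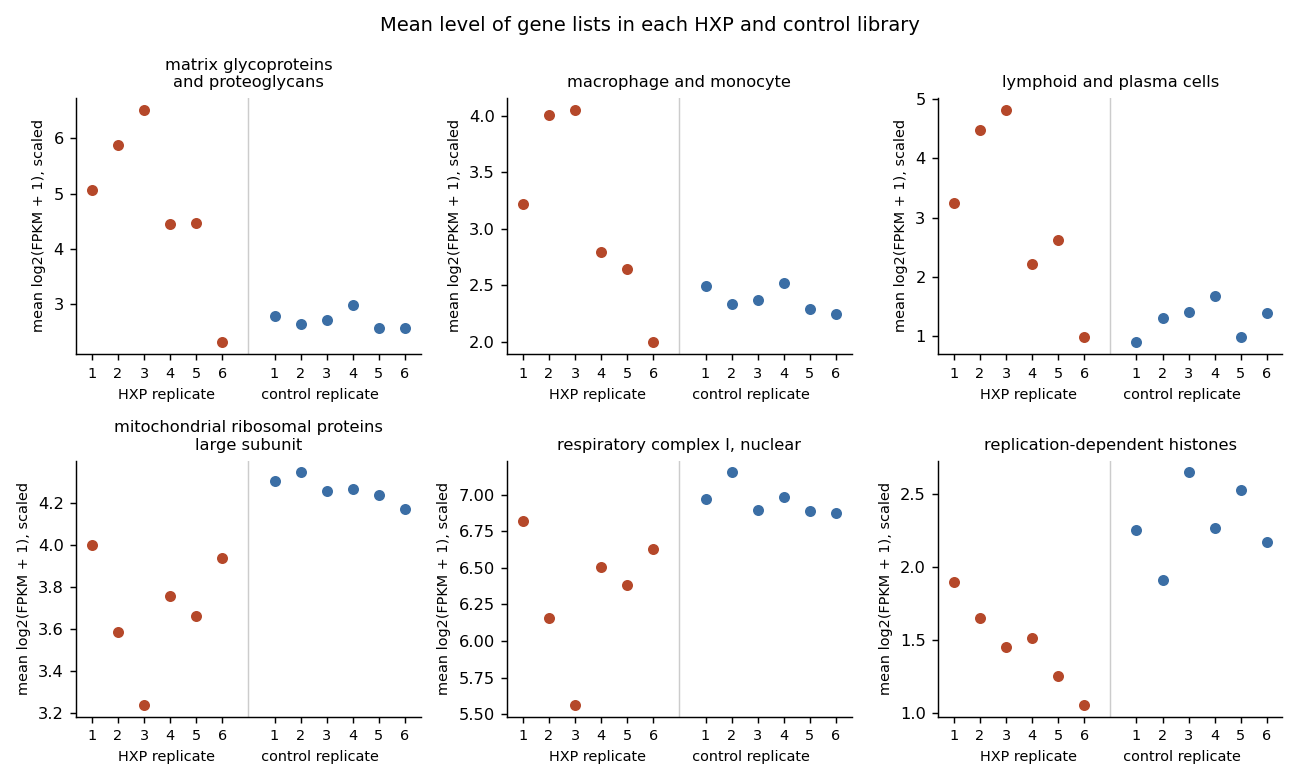
Mean log2(FPKM + 1) after median-ratio scaling over the tested members of 6 gene lists (y axis) in each HXP library (left of each panel) and each control library (right). For matrix glycoproteins HXP 6 is at 2.32 and HXP 3 at 6.52, while for the large mitochondrial ribosomal subunit and for histones all 6 HXP libraries are below every control.

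HXP 3 and HXP 6 were often at the ends of the HXP range. HXP 6 was the lowest HXP library for Hist1h4h, Mrpl34 and Mrps12, and it was also the lowest for Postn, Nppa and Angptl7. HXP 3 had the highest Postn, Nppa and Angptl7 and a mitochondrial read share of 20.5%, while HXP 6 had a share of 45.5%. After scaling HXP 3 also had the lowest mean levels of the HXP libraries for the large (3.24) and small (2.90) mitochondrial ribosomal subunits, complex I (5.56) and complexes III to V (6.51), and the highest for matrix glycoproteins. Library numbers in the file headers fall into 3 ranges of near numbers, called runs here although the headers name none. HXP 1, 3, 4 and 6 share a run with control 1, and HXP 2 and 5 with controls 3, 4 and 6, while controls 2 and 5 lie in a run with no HXP library. With the run as a covariate limma called no gene, and 534 were lower and 3248 higher at an unadjusted p below 0.05. Within the run of 5 libraries Hist1h4h differed by -2.22, Mrpl34 by -2.07 and Angptl7 by 4.06, and within the second run by -3.22, -2.42 and 3.93. No gene was called by limma within the run of 5, where 1 control stands alone and is assumed to vary like the other libraries (26 lower and 34 higher at an unadjusted p below 0.05). Within the second run 1 gene was lower and 2 were higher.

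The MI hearts, set against the same 6 controls, give a scale for these differences, and since the controls are shared the comparisons are not independent. MI 5 lies in the run of controls 2 and 5, and MI 1, 2, 3, 4 and 6 in that of HXP 2 and 5. The run of HXP 1, 3, 4 and 6 holds no MI library, so HXP against MI cannot be fully told apart from the runs. In the top quintile by GC content, which holds Hist1h4h, Mrpl34 and Mrps12, MI libraries deviated by -0.02 (MI 2) to 0.15 (MI 3) after scaling. In MI minus control 440 genes were lower (3.21%) and 5494 higher (40.1%) as deposited. After scaling 2213 genes were lower (16.1%) and 2257 higher (16.5%) in MI minus control, against 5.94% and 3.41% in HXP minus control. As deposited, Hist1h4h differed by -2.65 in HXP minus control and by -0.50 in MI minus control. In the same order Mrpl34 differed by -2.11 and -0.48, Mrps12 by -1.75 and -0.28, and Gpr146 by -2.07 and -0.07. Scaled values were -2.90 and -0.85 for Hist1h4h, -2.35 and -0.87 for Mrpl34, -1.99 and -0.66 for Mrps12, and -2.30 and -0.42 for Gpr146. For the lists after scaling, of the large mitochondrial ribosomal subunit 18 genes had fallen in HXP minus control (median -0.42) and 32 in MI minus control (-0.50), and of the small subunit 9 (-0.32) and 17 (-0.46). Complex I gave 12 (-0.55) in HXP minus control and 20 (-0.66) in MI minus control, complexes III to V 6 (-0.47) and 17 (-0.66), and the median of replication-dependent histones was -0.56 in HXP minus control and -0.19 in MI minus control. As deposited, Angptl7 differed by 4.05 in HXP minus control and by 5.06 in MI minus control. In the same order Postn differed by 3.07 and 4.20, Col1a1 by 2.22 and 3.98, and Nppa by 2.95 and 4.35. Tested directly, HXP minus MI gave no called gene as deposited by limma (0%), where 1632 genes were lower and 259 higher at an unadjusted p below 0.05. After scaling 4 genes passed (0.0292%), of which Gpr146 (-1.88), Arhgap23 (-0.67) and Slbp (-0.34) were lower and Gsta3 (0.54) higher in HXP, each at a limma adjusted p of 0.0335. For Hist1h4h that difference was -2.15 ± 0.47 as deposited (limma adjusted p = 0.196), so it did not pass the test.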

How the data were processed

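Heart RNA from 18 mouse libraries had been depleted of ribosomal RNA and prepared with a kit that does not mark strand, per the labels' protocols. The authors deposited 18 tables, each listing 34150 Ensembl genes. The deposited values were taken as FPKM, a unit that the headers do not name: after multiplication by exon length, 98.9% to 99.3% of the low values checked lay within 0.1 of a whole number of reads. Those steps gave the depth. Per the submitters' processing notes the build was GRCm38 and limma was used. No aligner, counter or annotation is given in the sources used here. For this report 34097 IDs were matched to GENCODE M21, and Ccn1 and Ccn2 to their older symbols.

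Values were analysed as log2(FPKM + 1), with a pseudocount of 1, for the 13710 genes averaging 0.5 FPKM or more, in 1 limma 3.58.1 model (R 4.3.3) of 3 groups with trend on. Fold changes are on that scale, which understates changes of low genes, and log2 differences are HXP minus control unless stated. Tests are two-sided with Benjamini-Hochberg adjustment over all genes tested. The groups came from the titles. Figures were drawn with matplotlib 3.10.9.

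The members and the 45 gene lists were chosen with earlier results of these data known. Named genes are a fixed set of 15, the 8 most extreme called genes in each direction at a mean of at least 1 FPKM, the 8 smallest p in each direction after scaling, and the 3 smallest p of each list; of these the text names those it describes. Outside this rule, Tfb2m, Akap1, Timm23, Alkbh7, Adra1d, Ppp1cc, Rpl7a and Arhgap23 were picked after their values were seen. The alternatives were other scalings, pseudocounts, filters, sample sets, GC corrections, the replicate block, the runs and leaving out each library. The script was tested on simulated data.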

Additional observations from a re-analysis of the deposited data

Results flagged for a closer look

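Of 134 groups of 6 libraries (67 named genes, each in HXP and in control libraries) 8 held a library whose gap to its neighbour passed Dixon's critical value, where chance flags about 1 in 20 groups. A single one was an HXP library: Maco1 in HXP 3 was at 7.60 FPKM, with the next HXP library at 5.66. The others were control libraries. Mrpl34 was at 27.6 FPKM in control 2, with the next lowest at 51.8, and Xbp1 was lowest there too, at 6.47 FPKM with the next at 10.7. Angptl7 was at 1.57 FPKM in control 4, with the next highest at 0.41, and Dkk3 was highest there at 1.40 FPKM, with the next at 0.868. Tcap was at 1508 FPKM in control 5, with the next at 1063, and Kcnk3 was at 62.4 FPKM there, with the next at 47.5. Per2 was lowest in control 3, at 1.14 FPKM with the next at 2.45.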

How the results depend on the processing

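The numbers of genes called depended on the scaling and on single libraries. As higher and lower genes in turn, the counts were 13 and 30 as deposited and with a robust prior, 467 and 814 with median-ratio scaling, 539 and 692 with quantile normalization, and 516 and 495 with scaling to non-mitochondrial reads. They were 48 and 55 with a pseudocount of 0.1, 29 and 56 at a mean of at least 5 FPKM, 0 and 5 with the compared groups only, 524 and 560 with GC correction, and, chosen after seeing the data, 703 and 660 with GC correction and scaling and 616 and 608 with GC and length correction. By limma no gene was called with no filter (0 and 0, with 5375 and 957 at an unadjusted p below 0.05), with the run as a covariate (0 and 0, 3248 and 534 unadjusted) or in the run of 5 alone (0 and 0, 34 and 26 unadjusted), and 2 and 1 in the second run alone. The cause of these shifts was not tested.

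Leaving out 1 library at a time gave 0 to 3855 higher and 0 to 381 lower genes as deposited, both highest without HXP 6, followed by 43 and 248 without HXP 1. Without control 1 the counts were 0 and 3, without control 2 they were 1 and 7, without control 4 they were 3 and 4, without HXP 2 they were 1 and 4, and without HXP 3 they were 2 and 5. Both were 0 without control 3, control 5, control 6 or HXP 5, where 3164 to 4114 higher and 582 to 642 lower genes passed unadjusted. After scaling the ranges were 79 (without HXP 2) to 1716 (without HXP 6) and 385 (without control 5) to 1923 (without HXP 6), with 79 to 211 higher and 385 to 533 lower genes without any 1 of the 6 controls, HXP 2, HXP 3 or HXP 5.

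With the replicate number as a block the counts were 0 and 1 as deposited, 613 and 807 with scaling, and 717 and 598 with GC correction. The numbers did not pair the libraries: correlations of same-numbered HXP and control deviations ran from -0.144 to 0.088, and 0 of 6 HXP libraries correlated best with their own number.

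Of the named genes' log2 differences, that of Myh6 turned to 0.0061 with quantile normalization, and in the run of 5 alone Slbp turned to 0.0601, Ppp1cc to 0.14 and Acta1 to -0.69. Depth limits low values such as that of Hist1h4h in HXP 6, which rests on 1 read.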

Other observations

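Period genes, which act in the negative limb of the circadian clock, differed between HXP and control hearts after scaling. Per2 had 3.63, 5.52 and 8.12 FPKM (lowest, median, highest) in HXP libraries, against 1.14, 2.67 and 3.22 FPKM in control libraries, and Per3 had 4.14, 5.69 and 8.94 FPKM in HXP libraries, against 2.39, 3.26 and 3.94 FPKM in control libraries. As deposited the groups overlapped for neither gene, and neither was called. After scaling the groups overlapped for both genes, and both were called (0.71 and 0.50, limma adjusted p = 0.0388 and 0.0344). They were 2 of 19 clock genes, where 3.41% of all genes tested had risen. As deposited, Per2 differed by 0.89 in HXP minus control and by 0.22 in MI minus control, with the same controls. Per3 differed by 0.69 and 0.14. Scaled values in MI minus control were -0.07 for Per2 and -0.17 for Per3, neither called.

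Wide ranges in HXP libraries were also measured for growth factor and Wnt pathway genes. Igf1, insulin-like growth factor, had 0.801, 4.29 and 11.9 FPKM in HXP libraries, against 0.995, 1.23 and 1.78 FPKM in control libraries, and Dkk3, a secreted protein related to Wnt inhibitors, had 0.512, 15.8 and 102 FPKM in HXP libraries, against 0.682, 0.768 and 1.39 FPKM in control libraries. Both rose after scaling (1.01 and 2.88, limma adjusted p = 0.0449 and 0.0144) and neither was called as deposited. Msln, mesothelin of the heart's outer layer, had 0.135, 4.12 and 31.2 FPKM in HXP libraries, against 0.0467, 0.240 and 0.739 FPKM in control libraries, and 5 of 9 mesothelial and epicardial markers tested had risen after scaling. The immediate early gene Nr4a1 had 1.45, 4.47 and 6.61 FPKM in HXP libraries, against 4.10, 7.27 and 10.2 FPKM in control libraries, and fell after scaling (-0.86, limma adjusted p = 0.0349). Xbp1, a transcription factor of the unfolded protein response, rose after scaling (0.48, limma adjusted p = 0.0375). It was the 1 such gene among 21, where 3.41% of all genes tested had risen.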
